A study of Gallus gallus with 12 samples.

Results

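TBX18, TBX2, TBX3, TBX4, TBX5 and TBX20 are members of the T-box family of transcription factors, and their levels were followed on the left and right of the embryonic chicken dorsal mesentery. The members were chosen by name, as all chicken probe sets whose single gene symbol in the platform annotation is one of these 6. All 6 genes had a probe set, out of 13008 named genes on the array, and together they had 9 of the 27166 chicken probe sets with 1 symbol. TBX18, TBX2, TBX3 and TBX4 had 1 each, TBX20 had 2 and TBX5 had 3. A probe set annotated to both TBX2 and TBX4 was left out by this rule.

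The tissue came from Leghorn embryos at Hamburger-Hamilton stage 21, about day 3.5 of incubation. The dorsal mesentery hangs the gut tube from the body wall, and each of its sides has a mesenchymal core covered by coelomic epithelium. The mesenchyme and the epithelium of either side were cut out of frozen sections with a laser, pooled within an experiment and each hybridised to an Affymetrix chicken array, which gave 12 arrays with n = 3 experiments per compartment. The labels name no mutation or treatment in any group, and the sources used here do not say how many embryos an experiment held. Values are MAS5 signals, linear and scaled by the authors to a common array mean. A signal was counted as above the floor when it exceeded a limit of 16.1 to 41.0 set on each array from 32 controls that match no chicken transcript, as their 95th percentile.

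T-box proteins share a DNA-binding domain, the T-box, and activate or repress their targets together with partners such as NKX2, GATA and TLE proteins. TBX18 is a repressor of the sinus venosus, the proepicardium, the ureter and the somites, and has been described on the right side of the dorsal mesentery, opposite to the LIM-homeodomain factor ISL1 on the left. TBX2 and TBX3 are closely related repressors used in heart, limb and body wall mesoderm, TBX4 and TBX5 are best known from hindlimb and forelimb, and TBX5 and TBX20 are activating and repressing factors of the heart. In the RefSeq order of the chicken protein-coding genes with a probe set, TBX2 is adjacent to TBX4, and TBX3 to TBX5.

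TBX18 was above the floor on 12 of 12 arrays. In left mesenchyme its signal was 997, 895 and 895 in experiments 1, 2 and 3 (929 ± 59.2, SD, n = 3), and in right mesenchyme it was 2764, 2866 and 2754 (2795 ± 61.9, n = 3). All right mesenchyme arrays therefore lay above all left ones, and the 3 arrays of either side lay close together. In left epithelium the signal was 841, 362 and 623 (609 ± 240, n = 3), and in right epithelium it was 2076, 2353 and 2912 (2447 ± 426, n = 3). The sides did not overlap in the epithelium either, with a wider spread than in the mesenchyme and the lowest of all 12 values on left epithelium 2. From high to low the compartment means ran right mesenchyme, right epithelium, left mesenchyme, left epithelium. Right mesenchyme and right epithelium, the first neighbours in that order, overlapped. Right epithelium and left mesenchyme were far apart, and left mesenchyme and left epithelium were separated by a narrow gap.

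**Figure D1:**
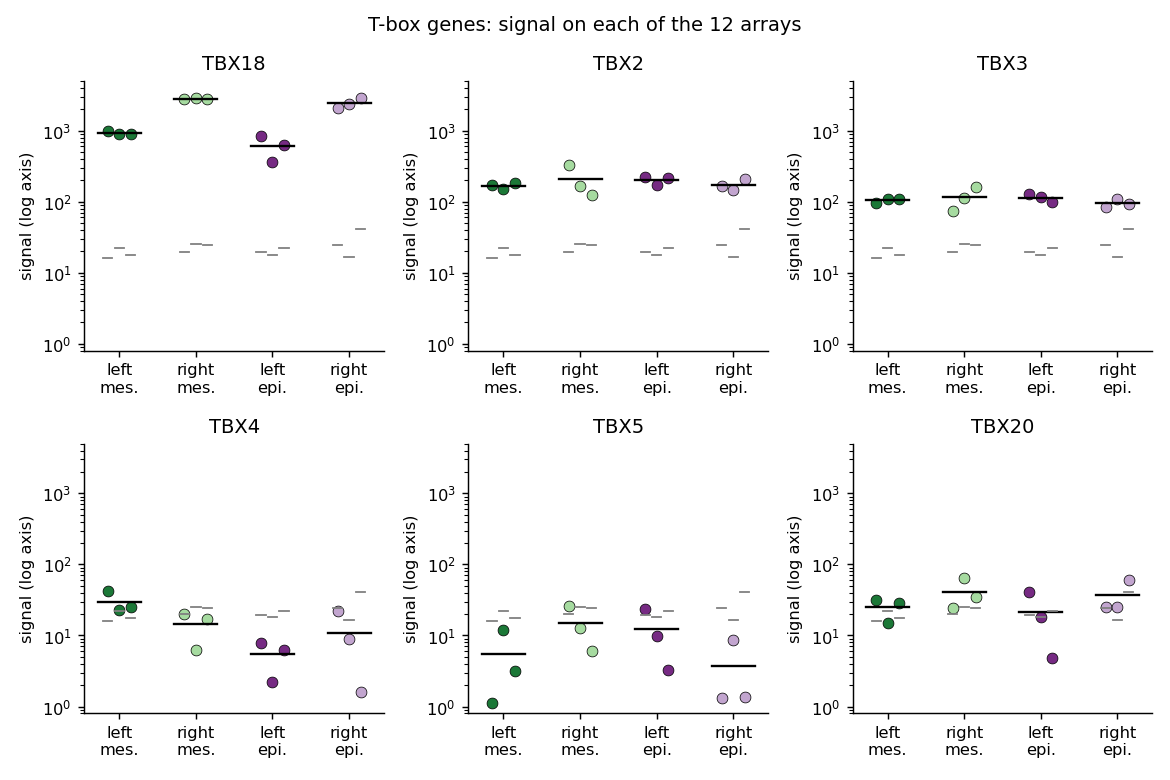
Signal (log axis) of the brightest probe set of each of the 6 T-box genes on the 12 arrays, by compartment (mes., mesenchyme, and epi., epithelium). Points are experiments 1 to 3 from left to right, black lines are means and short grey lines are the floor of the array. TBX18 lies between 362 and 997 on the left and between 2076 and 2912 on the right, while TBX2 and TBX3 overlap between the sides and TBX4, TBX5 and TBX20 lie near or below the floor.

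TBX18 was lower on the left in both tissues. In the mesenchyme the left-right difference was -1.57 ± 0.21 on the log2 scale (SE; 95% interval -2.03 to -1.12), that is 2.98-fold lower on the left (2.18 to 4.07), with an adjusted p of 0.000391 in the limma fit over 23063 probe sets. It was lower in 3 of 3 experiments, by right-over-left signal ratios of 2.77, 3.20 and 3.08. In the epithelium the difference was -2.04 ± 0.21 (-2.50 to -1.59), 4.13-fold lower on the left (3.02 to 5.64), with an limma adjusted p of 1.92e-05. Here too 3 of 3 experiments had the lower value on the left, with less even ratios of 2.47, 6.51 and 4.68. TBX18 ranked 51st among the probe sets lower on the left in the mesenchyme by log2 difference, and 29th in the epithelium.

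Of the 9 member probe sets 3 passed the filter on dim values and were tested, those of TBX18, TBX2 and TBX3. TBX18 was the 1 called lower on the left in the mesenchyme, where 1.06% of all probe sets were called lower, and the 1 called lower in the epithelium, where that share was 1.47%. No member was called higher on the left, which 0.932% of the probe sets were in the mesenchyme and 1.00% in the epithelium. In material of many cells, fewer cells of a type and less RNA per cell cannot be told apart, and that holds for every difference given here.

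Whether TBX18 differed between epithelium and mesenchyme of one side was less clear. On the left the epithelial arrays (362 to 841) all lay below the mesenchymal ones (895 to 997), and the difference was -0.67 ± 0.21 (-1.13 to -0.22), which missed the threshold with an limma adjusted p of 0.153. In this comparison 1.91% of all probe sets were called (0.659% higher and 1.25% lower in epithelium) and no member, while 1 of the 3 tested, TBX18, had an unadjusted p under 0.05, as did 11.6% of all. This result turned on 1 array: without left epithelium 1 the difference was -0.96 and was called (limma adjusted p = 0.0277), and without left epithelium 2 it was -0.36. On the right the epithelial and mesenchymal arrays overlapped, the difference was -0.20 ± 0.21 (-0.66 to 0.25; limma adjusted p = 0.770), and again no member was called against 1.90% of all probe sets (0.880% higher and 1.02% lower), with 0 of 3 at an unadjusted p under 0.05 against 12.7%. The left-right difference was larger in the epithelium than in the mesenchyme by 0.47 on the log2 scale (interaction -0.47 ± 0.30, -1.11 to 0.17), with an limma adjusted p of 0.913, so the data do not separate the tissues and leave room for a difference of up to 1.11. The interaction was called for 0.0260% of the probe sets (0.00867% higher and 0.0173% lower) and for no member, and 0 of the 3 had an unadjusted p under 0.05 against 5.84% of all. For TBX18 it was -0.16 without left epithelium 2 and -0.76 without left epithelium 1.

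TBX2, a repressor of chamber genes in the heart and of cell cycle inhibitors, was above the floor on all 12 arrays. It measured 170, 152 and 184 in left mesenchyme (169 ± 15.9, n = 3) and 334, 166 and 126 in right mesenchyme (209 ± 110, n = 3). It measured 223, 170 and 219 in left epithelium (204 ± 29.3, n = 3) and 167, 145 and 208 in right epithelium (174 ± 31.8, n = 3). The sides overlapped in both tissues, and 1 array, right mesenchyme 1, held the highest value. The left-right difference was -0.18 ± 0.32 in the mesenchyme (-0.86 to 0.50; limma adjusted p = 0.902) and 0.22 ± 0.32 in the epithelium (-0.46 to 0.90; limma adjusted p = 0.858). Epithelium and mesenchyme differed by 0.25 on the left (-0.43 to 0.93) and by -0.15 on the right (-0.83 to 0.53), and the interaction was 0.40 ± 0.46 (-0.57 to 1.36). These intervals leave room for changes of up to 1.81-fold lower and 1.86-fold higher on the left in mesenchyme and epithelium respectively, and the sign in the mesenchyme turned without right mesenchyme 1 (0.18).

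TBX3, which with TBX2 shares repression of cardiac chamber genes and is itself known from limb and body wall, was above the floor on all 12 arrays. The signal was 97.5, 110 and 111 in left mesenchyme (106 ± 7.41, n = 3) and 73.8, 112 and 161 in right mesenchyme (115 ± 43.6, n = 3). In the epithelium it was 127, 117 and 99.4 on the left (115 ± 14.0, n = 3) and 84.6, 109 and 93.1 on the right (95.7 ± 12.6, n = 3). Left and right overlapped in both tissues. The left-right difference was -0.05 ± 0.33 in the mesenchyme (-0.76 to 0.65; limma adjusted p = 0.978) and 0.23 ± 0.33 in the epithelium (-0.48 to 0.93; limma adjusted p = 0.860). Between epithelium and mesenchyme it was 0.09 on the left (-0.61 to 0.80) and -0.19 on the right (-0.89 to 0.52), and the interaction was 0.28 ± 0.47 (-0.72 to 1.28). Without right mesenchyme 3 the mesenchymal difference was 0.21. Whether TBX2 or TBX3 differ from TBX18 in their left-right change was not tested.

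**Figure D2:**
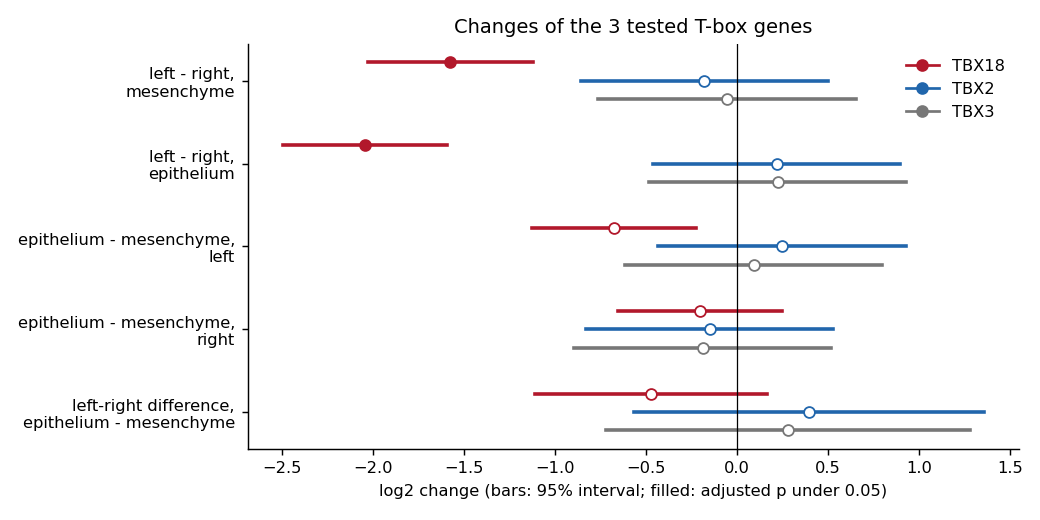
Log2 differences of TBX18, TBX2 and TBX3 in the 5 comparisons of the limma fit, with 95% intervals as bars and filled points where the adjusted p was under 0.05. The TBX18 intervals of both left-right comparisons lie below 0, at -2.03 to -1.12 and -2.50 to -1.59, and all intervals of TBX2 and TBX3 include 0.

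TBX4, TBX5 and TBX20 did not pass the filter. TBX4 measured 42.4, 22.6 and 25.0 in left mesenchyme, above the floor on 3 of 3 arrays, and 20.2, 6.31 and 17.3 in right mesenchyme, above it on 1 of 3. In left epithelium it was 7.92, 2.19 and 6.27, in right epithelium 22.1, 8.82 and 1.60, and above the floor on none of these 6. All left mesenchyme values of TBX4 thus lay above all right mesenchyme values, but within reach of the floor. Without the filter this difference was 0.59 ± 0.32 (-0.08 to 1.27) and was not called (limma adjusted p = 0.592). How many of all probe sets also had no overlap between the sides was not counted. The 3 TBX5 probe sets ranged from 1.74 to 12.0, from 1.02 to 15.2 and from 1.14 to 25.9, and were above the floor on 0, 0 and 2 of 12 arrays. One TBX20 probe set was above the floor on 10 of 12 arrays, at 32.0, 14.9 and 28.5 in left mesenchyme and 24.7, 63.9 and 34.6 in right mesenchyme. Its signal was 40.3, 18.3 and 4.75 in left epithelium and 25.6, 25.3 and 60.7 in right epithelium, so the sides overlapped in both tissues. The other TBX20 probe set lay between 1.07 and 30.8 and above the floor on 3 of 12. When no filter was applied, 0 of these 6 probe sets were called by limma in any comparison. The lowest limma adjusted p of all was that of TBX4 between epithelium and mesenchyme on the left (-1.09 ± 0.32, -1.76 to -0.41; adjusted p = 0.179), where every mesenchymal value (22.6 to 42.4) lay above every epithelial one (2.19 to 7.92). For left against right the lowest was 0.396 in the mesenchyme, that of the dimmer TBX20 probe set (-0.76 ± 0.30), and 0.696 in the epithelium. For epithelium against mesenchyme on the right it was 0.457, and for the interaction 0.882. An unadjusted p under 0.05 was given by 1 of the 6 in each comparison except left against right in the epithelium, with 0. In the filtered fit, 0.0260% to 2.47% of all probe sets were called, depending on the comparison, and 5.84% to 12.8% had an unadjusted p under 0.05. The shares of the unfiltered fit are not given here, and no reading is drawn from these counts. The TBX2 and TBX4 probe set left out by the rule lay between 1.24 and 32.1.

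Of 11 further T-box genes listed for comparison, 10 had a probe set, 2 were tested and 0 were called by limma in any comparison, with 1 unadjusted p under 0.05, that of TBXT between left epithelium and left mesenchyme. In that comparison 11.6% of all tested probe sets had an unadjusted p under 0.05, and 1.91% were called. TBXT (brachyury), the founding member and a notochord and mesoderm factor, measured 117, 231 and 165 in left epithelium (171 ± 57.0, n = 3). It measured 65.0, 26.7 and 140 in left mesenchyme, 83.7, 56.0 and 80.3 in right mesenchyme and 71.6, 55.0 and 145 in right epithelium. Left epithelium overlapped the left mesenchyme and the right epithelium, and its differences from them, 1.15 ± 0.41 and 0.85 ± 0.41, missed the threshold with limma adjusted p of 0.234 and 0.411. MGA, a T-box protein of MYC-network repressor complexes, ranged from 1526 to 2192 on its brightest probe set, with left-right differences of -0.12 ± 0.15 in the mesenchyme and -0.02 ± 0.15 in the epithelium. EOMES, TBR1, TBX1, TBX6, TBX10, TBX15, TBX19 and TBX22 were above the floor on 0 to 5 of 12 arrays.

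Genes of the same pathways were read from lists of cofactors, reported target genes and upstream signals. Of all tested probe sets 1.99% were called between the sides in the mesenchyme and 2.47% in the epithelium. Between the tissues 1.91% were called on the left and 1.90% on the right, and 0.0260% in the interaction. The lists were chosen with earlier results of these data known, and whether they differ from all probe sets was not tested. Of 12 tested cofactors 1 was higher and 1 lower on the left, in both tissues, with median left-right differences of -0.23 in the mesenchyme and -0.02 in the epithelium against 0.00 and 0.01 over all probe sets. ISL1 was higher on the left, at 1062 against 202 in the mesenchyme (2.30 ± 0.26; limma adjusted p = 6.69e-05) and 791 against 176 in the epithelium (2.13 ± 0.26; 0.000127). GATA4, a zinc-finger partner of TBX5 and TBX20, was lower on the left like TBX18, at 675 against 1652 in the mesenchyme (-1.27 ± 0.17; limma adjusted p = 0.000239) and 793 against 1462 in the epithelium (-0.87 ± 0.17; 0.00633). Its epithelial call was lost without left epithelium 3 (adjusted p = 0.0555) and in a fit of the epithelial arrays alone (0.0727). Between the tissues 1 cofactor was called, MEF2C, a MADS-box factor of muscle and endothelium, lower in epithelium on the left (-2.79 ± 0.32) and on the right (-1.89 ± 0.32), where median differences of the list were 0.09 and -0.17. Its call on the right was lost without the intensity trend (adjusted p = 0.0577).

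Of 9 tested genes reported as T-box targets elsewhere, 3 were higher and 1 lower on the left in the mesenchyme (median 0.21), and 2 were higher and 0 lower in the epithelium (median 0.28). These are 44.4% and 22.2% of a short list, against 1.99% and 2.47% of all probe sets. FGF10, the growth factor through which TBX4 and TBX5 act in the limb, was lower on the left in the mesenchyme, at 57.1 ± 27.5 against 219 ± 42.8 (-1.74 ± 0.40; limma adjusted p = 0.0286). GJA5, a gap junction gene of heart and arteries activated by TBX5, was higher on the left in the mesenchyme, at 618 against 142 (2.18 ± 0.49; 0.0264). MYCN, a growth regulator, was higher on the left in the mesenchyme by 0.63 ± 0.13 (0.0111), while its 1 other tested probe set was at 0.24 and not called. TGFB2, a ligand acting in cardiac cushions, was higher by 0.46 ± 0.09 in the mesenchyme (0.0138) and by 0.51 ± 0.09 in the epithelium (0.00581). GJA1, a gap junction gene repressed by TBX2 and TBX18 in the heart, was higher on the left in the epithelium by 0.75 ± 0.19 (0.0472). Several of these calls did not hold when 1 array was left out, whichever of several arrays it was. FGF10 was lost without any one of right mesenchyme 1, 2 and 3 or left mesenchyme 2 and 3 (adjusted p up to 0.201), and GJA5 without any one of left mesenchyme 1, 2 and 3 or right mesenchyme 1 and 2 (up to 0.205). MYCN was lost without any one of left mesenchyme 1, 2 and 3 or right mesenchyme 1 and 3 (up to 0.0681), and TGFB2 in the mesenchyme without any one of left mesenchyme 1, 2 and 3 or right mesenchyme 1 and 2 (up to 0.0918). Without the intensity trend TGFB2 was lost in both tissues (adjusted p = 0.266 and 0.196). The GJA1 call was lost without any single array except left mesenchyme 3 and right epithelium 3 (up to 0.230).

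Between epithelium and mesenchyme the target list had 1 gene higher and 1 lower on either side, with medians of 0.02 on the left and -0.02 on the right. GJA1 was higher in epithelium by 1.46 ± 0.19 on the left and 1.19 ± 0.19 on the right. GJA5 was lower in left epithelium (-4.08 ± 0.49). There it was above the floor on 2 of 3 arrays (6.88 to 41.3), so the size of this difference is uncertain. On the right, where it was above the floor on 0 of 3 epithelial arrays, it was at least 3.31-fold lower than in mesenchyme (limma adjusted p = 0.0287), a call lost without any one of right epithelium 1 and 2 or right mesenchyme 1 and 3 (up to 0.200).

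Among 16 tested upstream signals, 1 was higher and 2 lower on the left in both tissues, with medians of -0.06 and -0.09. SMAD6, an inhibitor of BMP signalling that BMP itself induces, was lower on the left, at 4537 against 9507 in the mesenchyme (-1.07 ± 0.13; limma adjusted p = 0.00011) and 4121 against 7199 in the epithelium (-0.81 ± 0.13; 0.00156). ALDH1A2, which makes retinoic acid, was also lower on the left, by 0.75 in the mesenchyme (-0.75 ± 0.10; 0.000239) and by 0.69 in the epithelium (-0.69 ± 0.10; 0.000482). CYP26A1, which degrades retinoic acid, was higher on the left, by 1.46 ± 0.17 (adjusted p = 8.52e-05) and 1.16 ± 0.17 (0.000781). Each of these 6 calls held without each single array, but 3 were lost without the intensity trend of the fit, SMAD6 in the epithelium (adjusted p = 0.0896) and ALDH1A2 in the epithelium (0.0842) and the mesenchyme (0.072).

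Between the tissues, 2 upstream genes were higher and 3 lower in left epithelium, and 1 was higher and 1 lower in right epithelium, with medians of -0.19 and -0.29. The transcriptional repressors SNAI1 (-2.02 ± 0.24) and SNAI2 (-1.0 ± 0.14) were lower in left epithelium, and SNAI2 also in right epithelium (-1.01 ± 0.14). RARB, a retinoic acid receptor, was lower in left epithelium by 0.70 (-0.70 ± 0.17; limma adjusted p = 0.0374), and the ligand gene BMP7 was higher there by 1.31 ± 0.28 (0.0169). ALDH1A2, on the left beyond the 4 largest changes of the list, was also called higher in left epithelium, at 7912 to 9713 against 5732 to 7110. That call was lost without any one of left epithelium 2 and left mesenchyme 1 and 3 (limma adjusted p up to 0.0691). ALDH1A2 was higher in right epithelium by 0.45 ± 0.10 (0.0204). In the same comparisons 2 other probe sets of RARB (-0.42 and -0.32) and, on the right, 2 of ALDH1A2 (0.42 and 0.73) had the same sign and were not called. Of 2 others of BMP7, both of the same sign, 1 was called. RARB was lost without any one of 7 arrays, namely left mesenchyme 1, 2 and 3, left epithelium 1 and 2 and right mesenchyme 1 and 2 (up to 0.234). BMP7 was lost without any one of left mesenchyme 1 and 3 or left epithelium 1 and 3 (up to 0.155), and ALDH1A2 on the right without any one of right epithelium 1 and 3 or right mesenchyme 1, 2 and 3 (up to 0.135). In the interaction 0 genes of these 3 lists were called.

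**Figure D3:**
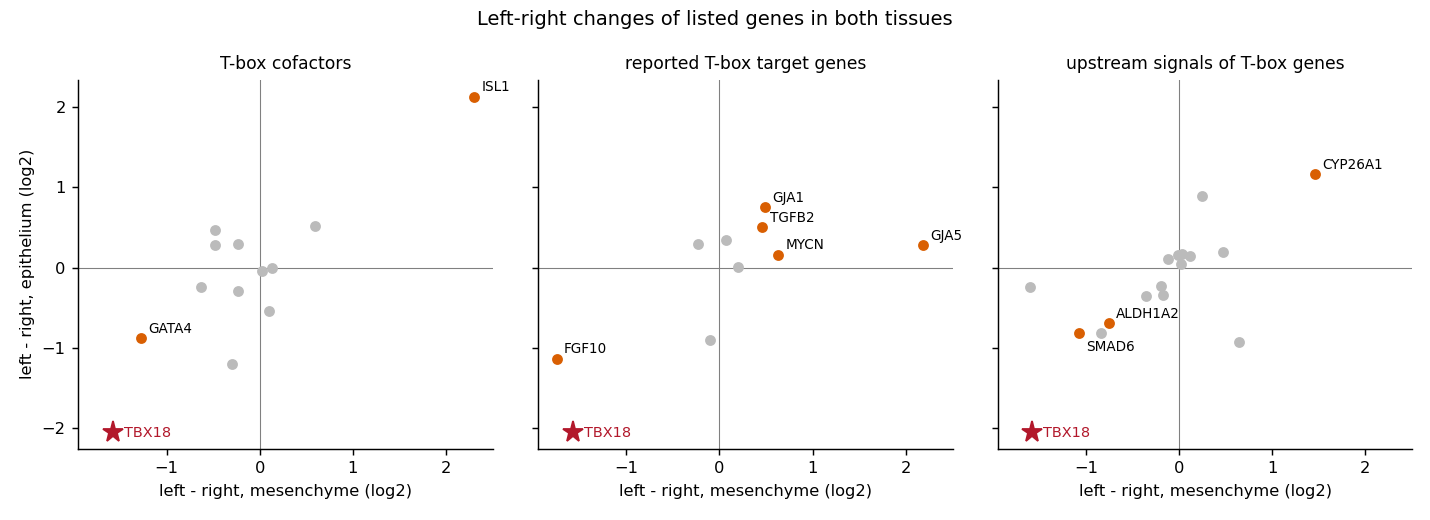
Left-right log2 differences in the mesenchyme (x axis) and the epithelium (y axis) of the tested cofactors, reported targets and upstream signals of T-box genes. Orange points with names were called in at least 1 tissue, grey points in neither, and the red star is TBX18 (-1.57 and -2.04), with GATA4, SMAD6 and ALDH1A2 on its side of 0 and ISL1 and CYP26A1 on the other.

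Cell type markers and RNA quality were set beside the TBX18 difference. For all marker lists, the shares called over all probe sets were 1.99% and 2.47% between the sides in mesenchyme and epithelium. Between the tissues they were 1.91% on the left and 1.90% on the right. Among 14 tested coelomic epithelium markers 8 were higher in epithelium than mesenchyme on the left and 10 on the right, with none lower. PODXL, LHX9, LRRN4, BNC1 and BNC2 were among them on both sides, and CRB2 on the right only. The counts of 8 and 10 both include KRT24, which was matched to the listed KRT19 through a RefSeq synonym. Among the 12 fits without a single array, the right-side calls of EPCAM, LRRN4, BNC2 and LHX9 were lost in 10, 9, 6 and 2. Those of PODXL, BNC1 and CRB2 were lost in 0 on the right. On the left the call of BNC2 was lost in 1, and those of PODXL, LHX9, LRRN4 and BNC1 in 0. None of 15 tested mesenchyme markers was higher in epithelium, while LUM, SNAI2, PDGFRB and DCN were among 5 lower on the left and LUM, SNAI2 and DCN were the 3 lower on the right. On the left the calls of PDGFRB and DCN were lost in 6 and 5 of these fits, and those of LUM and SNAI2 in 0. On the right those of LUM, SNAI2 and DCN were lost in 0. Between the sides, 4 of the 14 coelomic markers were lower on the left in the mesenchyme (GATA4, LHX9, ALDH1A2 and KRT7) and 3 in the epithelium (GATA4, ALDH1A2 and TCF21), and the other 10 and 11 did not pass, 5 and 4 of the 14 having differences above 0. GATA4 and TCF21 were not called between the tissues. The summed signal of the list was 28105 to 28622 in left and 35017 to 37645 in right mesenchyme, and 47731 to 49639 in left and 57688 to 59106 in right epithelium. Of these sums ALDH1A2 alone gave 5732 to 7110 in left and 9918.5 to 11116 in right mesenchyme. In the epithelium it gave 7912 to 9713 on the left and 13457 to 15382 on the right. KRT7 gave 4008 to 5514 in left and 7037 to 7444 in right mesenchyme, and EPCAM, the other way, 5144 to 5565 and 4078 to 4613. No coelomic marker lacked signal above the floor in mesenchyme, whereas MSLN and UPK1B lacked it in left epithelium, and the defining genes WT1 and UPK3B were not analysed here. Of the mesenchyme markers 2 were higher (LUM and NKX3-2) and 2 lower (VIM and COL3A1) on the left in the mesenchyme, and 2 higher (LUM and DCN) and 3 lower (VIM, COL1A1 and TCF21) in the epithelium, with summed signal of 58681 to 61189 against 67546 to 69591 in the mesenchyme and 46427 to 52393 against 60155 to 62469 in the epithelium. VIM alone gave 19158 to 20172 against 23373 to 27228 of these sums in the mesenchyme and 16129 to 17726 against 22962 to 23962 in the epithelium. The other 11 and 10 of the 15 tested did not pass. Differences were above 0 for 7 and below 0 for 8 in the mesenchyme (median -0.005), and for 4 and 11 in the epithelium (median -0.30). In the 12 fits without a single array, the mesenchymal calls of LUM, NKX3-2, VIM and COL3A1 were lost in 5, 6, 4 and 1. The epithelial calls of DCN, COL1A1 and TCF21 were lost in 10, 3 and 3, and those of LUM and VIM in 0. NKX3-2 was above the floor on 2 of 3 right mesenchyme arrays. GATA4, ALDH1A2, LHX9, SNAI2 and TCF21 are among the genes that stand in more than 1 of the lists used here. TCF21 stands in both the coelomic and the mesenchyme list, so its call in the epithelium is counted in each. Of 69 named marker calls over the comparisons, 30 were lost without some single array. The part of these cells in the TBX18 difference was not tested.

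Of 18 tested endothelial markers 5 were higher on the left in the mesenchyme, CDH5, SOX7, CLDN5 and VWF most, with summed signal of 12959 to 14222 against 5510 to 6708. The other 13 did not pass. Among the 12 fits without a single array, the calls of VWF and LMO2 were lost in 3 and 5, and those of CDH5, SOX7 and CLDN5 in 0. Of all 18 the difference in the mesenchyme was above 0 for 14 and below 0 for 4, with FLT1, LYVE1 and TEK among the 4 (median 1.20). In the epithelium 1 was lower, FLT1, and 17 did not pass, with 9 differences above 0 and 9 below (median -0.027). Of 8 tested heart muscle markers MYL4 and TNNC1 were lower on the left in both tissues, as TBX18 was, with summed signal of 8118 to 9168 against 12622 to 13839 in the mesenchyme and 8436 to 10099 against 12544 to 14393 in the epithelium. TNNC1 alone made up most of these sums, with 5783 to 6911 in left mesenchyme and 10490 to 12412 in right epithelium. Its calls were lost in 1 of the 12 single-array fits in the mesenchyme and in 4 in the epithelium. Without the intensity trend they were lost in both tissues (limma adjusted p = 0.187 and 0.278). The MYL4 calls held in all of these fits. The other 6 did not pass, and of all 8 the difference was above 0 for 2 in the mesenchyme and 4 in the epithelium (medians -0.37 and -0.028). Of the defining heart muscle genes, CSRP3 and NKX2-5 were above the floor on no mesenchymal array. Of 8 tested blood markers 0 were called between the sides in the mesenchyme and 5 were lower on the left in the epithelium, among them HBA1, HBZ, HBBR and HBAD. The calls of HBBR and HBAD were each lost in 4 of the 12 single-array fits, and those of HBA1 and HBZ in 0. Each of these calls was lost without the intensity trend (limma adjusted p up to 0.156). The summed blood signal was 63779, 24118 and 19585 on left epithelium 1, 2 and 3, where TBX18 measured 841, 362 and 623, and 68373 to 72172 on the right. Neural markers had 1 gene higher (NEFM) and 1 lower (TH) of 5 in both tissues. In the 12 fits without a single array, NEFM was lost in 6 in the mesenchyme and 9 in the epithelium, and TH in 5 and 0. TH was above the floor on 2 of 3 left mesenchyme and 1 of 3 left epithelium arrays. Gonad and nephros markers had 2 lower of 9, GATA4 with LHX9 or NR0B1, and none of 5 endoderm markers was called between the sides. The 3′ minus 5′ log2 signal of GAPDH, a gauge of RNA degradation, was 1.35 on the left (1.23 to 1.58) and 1.18 on the right (0.946 to 1.29), a difference of 0.17 with an exact two-sided permutation p of 0.0433, or 0.130 adjusted over the 3 control genes examined. For the other control genes the left minus right difference was 0.091 (actin, permutation p = 0.513) and 0.065 (EF1A, permutation p = 0.178). This permutation shuffled all left and right arrays as if independent. Both tissues of a side came from the same 3 experiments, so its p does not measure the spread between experiments. The part of each of these markers and of RNA quality in the TBX18 difference was not tested.

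The genes whose log2 values followed TBX18 most closely over the 12 arrays were CDH11, a cadherin of mesenchymal cells (r = 0.98), PDE5A, a cGMP phosphodiesterase (0.97), PCDH11X, a protocadherin (0.97), UTS2B, a urotensin-like peptide (0.96), and CRHBP, a binding protein of corticotropin-releasing hormone (0.95). The 12 points share their arrays and fall into 4 compartments, so these values are a description. CDH11 averaged 1682 and 1237 in left mesenchyme and epithelium and 3303 and 2974 on the right, and UTS2B averaged 1259 and 668 on the left and 3370 and 2836 on the right. CRHBP averaged 48.4 and 22.3 on the left and 168 and 272 on the right, and in left epithelium it was above the floor on 1 of 3 arrays. The most opposite were LTBP1, which holds latent TGF-beta in the matrix (-0.97), BRCA1, a DNA repair gene (-0.96), CLSTN1, a calsyntenin (-0.95), PCASP1 (-0.94) and BUB1B, a spindle checkpoint kinase (-0.93). LTBP1 averaged 7244 and 10509 in left mesenchyme and epithelium and 3914 and 4222 on the right.

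**Figure D4:**
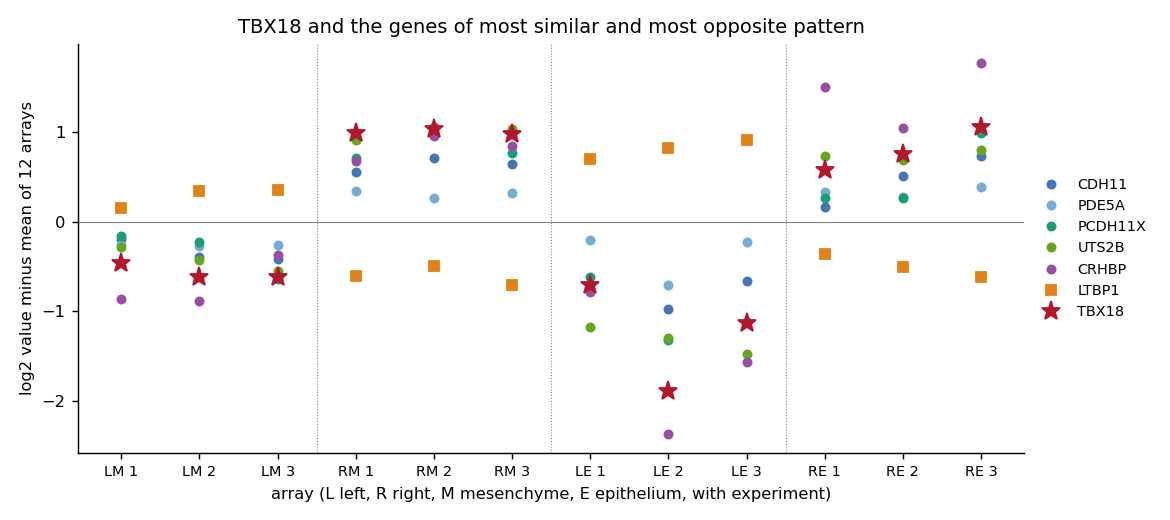
Log2 value minus the mean of the 12 arrays for TBX18 (red stars), the 5 genes of most similar pattern and LTBP1, the most opposite (orange squares), by compartment and experiment. TBX18 and the similar genes are low on the 6 left arrays and high on the 6 right ones, and LTBP1 is the reverse.

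None of the genes next to TBX18 passed the test between the sides. Of the 6 nearest with a probe set in the RefSeq order, SYNCRIP, SNX14, CEP162, MRAP2 and CYB5R4 were tested and NT5E was not. Their left-right differences ranged from -0.32 to 0.27 in the mesenchyme and from -0.31 to 0.17 in the epithelium, and 0 of 5 were called by limma in either, against 1.99% and 2.47% of all probe sets. At an unadjusted p under 0.05 there were 0 of 5 in both, against 12.3% and 12.8% of all.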

How the data were processed

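RNA of 4 laser-captured compartments in 3 experiments was amplified and hybridised to 1-colour arrays. The authors deposited linear intensity values, made with MAS5 in GCOS per the submitters' processing notes, with versions not given in the sources used here. Each array's trimmed mean was 500.11 to 500.12, and 65.4% to 80.2% of its probe sets were above the floor. Precision is limited by the number of arrays.

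The scaling was kept and log2(value + 16) taken, which understates changes of dim genes. Probe sets other than controls entered the test if their mean log2 value exceeded the 40th percentile, equal to a signal of 47.41. These 23063 were fitted in 1 model over 12 arrays with limma 3.58.1 in R 4.3.3, with an intensity trend and the experiment as a fixed block. P-values are two-sided and were adjusted by Benjamini-Hochberg within a comparison, with 0.05 as threshold. The script was tested on simulated data. The block rests on the series text, by which an experiment supplied all compartments. The number in the labels was taken to name it. Deviations from compartment means correlated at -0.031 to 0.058 (mean 0.014) over the 18 pairs of same-numbered arrays. An exact test of 3 against 3 arrays cannot go below p = 0.1.

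Names came from the platform annotation of 2016 (38535 probe sets, of which 10350 chicken ones had no symbol and 177 several). Entrez identifiers of 26863 matched RefSeq. The brightest probe set stood for a listed gene. The members, the 12 gene lists and the tests were chosen with earlier results of these data known. The lists (4 of T-box biology, 8 of cell types) held 199 entries, 177 with a probe set, and some genes stand in several lists. List genes passing in a comparison were named, at most the 4 largest changes per list, and the 5 genes most and least like TBX18. Alternatives varied the pseudocount, scaling, filter, trend, weights, block and arrays. Sequences are not used here, and genome coordinates served only to order the genes along a chromosome.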

Additional observations from a re-analysis of the deposited data

How the results depend on the processing

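TBX18 was lower on the left and called in both tissues under all 26 alternatives. Over 10 other settings the mesenchymal difference was -1.59 to -1.53 (adjusted p up to 0.0324) and the epithelial one -2.07 to -1.95 (up to 0.0074). Leaving out single arrays gave -1.66 to -1.43 and -2.33 to -1.73, and leaving out an experiment gave -1.63 to -1.53 and -2.42 to -1.74. Without right mesenchyme 3 and right epithelium 3 together, the arrays of largest residual spread, an alternative chosen after seeing the data, they were -1.60 and -1.93. The pairing was examined by a fit without the replicate block. Every experiment held all compartments, so the differences of -1.57 and -2.04 could not change, and only their SE and p could. The SE was 0.219 against 0.214 with the block, and the limma adjusted p were 0.000255 and 8.08e-06. In all, 447 and 529 probe sets were called against 460 and 569. The fit without the block moved the interaction from 6 to 10 calls and changed no call of a member.

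For the epithelium against the mesenchyme, TBX18 on the left was -0.96 to -0.36 without single arrays, and without left epithelium 1 it was called, so that 0 to 1 members were called. On the right it was -0.35 to 0.011 without an array or an experiment, turning sign without right epithelium 1. Uncalled differences also changed sign. In the mesenchyme between the sides, TBX2 was -0.53 to 0.19, turning without right mesenchyme 1 (0.18) and without experiment 1 (0.19). TBX3 was -0.28 to 0.21, turning with array weights (0.050), without right mesenchyme 3 (0.21), without experiment 3 (0.16) and without right mesenchyme 3 and right epithelium 3 together (0.22). Between tissues on the left TBX3 was -0.10 to 0.26, at -0.099 without left epithelium 1 and -0.026 without experiment 1. On the right TBX2 was -0.55 to 0.24, at 0.21 without right mesenchyme 1, 0.017 without right epithelium 1 and 0.24 without experiment 1, and TBX3 was -0.42 to 0.078, at 0.078 without right mesenchyme 3, 0.068 without experiment 3 and 0.068 without both these arrays of experiment 3. The TBX2 interaction was -0.053 to 0.81, the lowest without experiment 1. Counts over all probe sets moved more: over the 10 settings 205 to 763 for the mesenchyme, where no intensity trend gave the fewest and array weights the most, and 268 to 581 for the epithelium. Leaving out an experiment gave 148 to 225 and 199 to 329, with fewer arrays. Of 28 named calls in the pathway lists 18 held without each single array, and of 69 in the marker lists 39 did. Under some processing setting 15 of the 28 and 34 of the 69 were lost, 14 and 28 of them in the fit without the intensity trend. Near the floor, where TBX4, TBX5 and TBX20 lay on many arrays, a fall is limited by the floor.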
